A study of Homo sapiens with 6 samples.

Results

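The genes described here are those of IL11, LIF and gp130 signalling in MDA-MB-231 cells, an established human triple-negative breast cancer cell line. They are 10 of the 60612 genes in the data, taken by name. They comprise the cytokines IL11, IL6 and LIF, the receptor chains IL11RA, IL6R, LIFR, OSMR and IL6ST, and the signal transducer STAT3 with its feedback inhibitor SOCS3. RNA was sequenced on day 3 from cells with a stable control hairpin (Sh-NC, labelled WT) or a stable hairpin that silences YAP1 (Sh-YAP1, labelled YAP1 knockdown), with 3 libraries in each group. Neither group received a treatment according to the labels, and a single Sh-YAP1 group was sequenced, so that an effect of the hairpin outside YAP1 cannot be told apart from the loss of YAP1. The labels do not say whether the libraries of a group came from separate cultures. The p-values therefore rest on the spread between these libraries, which the fit over all genes draws towards a common trend. The comparison asks what happens to this pathway when YAP1, a transcriptional coactivator of the Hippo pathway, is depleted. The genes were chosen by their place in the pathway around IL11, and IL11 was selected on its lower FPKM in Sh-YAP1, a result of the same contrast. The differences of its 10 genes between the groups are therefore given as a description. They come from the fit over all genes, and whether a gene passed its threshold is stated as part of that description, not as a test of the list or of IL11.

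Cytokines of this family signal through gp130, the shared receptor chain encoded by IL6ST. IL11 and IL6 first bind a private chain, IL11RA or IL6R, which then recruits gp130, whereas LIF assembles gp130 with LIFR, and oncostatin M assembles gp130 with OSMR or LIFR. The receptor-bound Janus kinases JAK1, JAK2 and TYK2 phosphorylate STAT3, which enters the nucleus and induces, among other genes, SOCS3, whose product blocks gp130 and the kinases bound to it. In breast cancer, IL11 is best known for its part in bone metastasis, and MDA-MB-231 is a common model for this.

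IL11 and SOCS3 are the genes of the list with the clearest difference between the groups, and the bases before their start sites are shown because a change of transcript level raises the question of what lies there. The windows cover the 250 bases upstream of the start site given by RefSeq (GRCh38.p14), on the minus strand, at chr19:55370464-55370713 for IL11 and at chr17:78360926-78361175 for SOCS3. Both run 5′ to 3′, and capitals mark a match to a searched motif.
IL11: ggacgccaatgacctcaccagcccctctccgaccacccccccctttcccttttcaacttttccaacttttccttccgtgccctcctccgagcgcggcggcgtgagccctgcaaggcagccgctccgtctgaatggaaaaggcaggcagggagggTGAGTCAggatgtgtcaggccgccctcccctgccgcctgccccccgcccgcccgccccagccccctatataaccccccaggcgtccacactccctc
SOCS3: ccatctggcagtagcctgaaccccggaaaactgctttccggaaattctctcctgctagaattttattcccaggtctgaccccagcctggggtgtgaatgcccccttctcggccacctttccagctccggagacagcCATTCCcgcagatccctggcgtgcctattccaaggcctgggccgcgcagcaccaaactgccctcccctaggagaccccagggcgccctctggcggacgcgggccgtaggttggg
The motifs searched, on both strands, were TGANTCA for AP-1, GGAATG for TEAD, the DNA-binding partner of YAP1, and TTCNNNGAA for STAT factors. The IL11 window held 1 match to the AP-1 motif, with its first base at -96 from the start site. It was the single AP-1 match in the 13 windows found for 9 of the 10 genes, and 6.57% of 35116 RefSeq promoter windows of this length held the motif. The SOCS3 window held 1 match to the TEAD motif, read as CATTCC on the strand shown, with its first base at -114. RefSeq gives SOCS3 a second, more downstream window, in which none of the motifs was found, and the 5′ end of SOCS3 in GENCODE 29 lies between the start sites of the pair. The TEAD motif was present in 11.9% of all windows and, among the genes of the list, also in a window of LIFR. The STAT motif was found in windows of LIFR alone among these genes, in 2 of its windows, against 6.57% of all windows. These matches describe letters in a window and are not binding sites. No window was found for LIF.

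YAP1 itself was checked first. Its expression was 28.1, 26.2 and 22.9 FPKM (fragment counts scaled to transcript length and library size) in the Sh-NC libraries and 3.35, 2.67 and 2.58 FPKM in the Sh-YAP1 libraries, 11.1% of the Sh-NC mean. FPKM values of a gene are the sum over its deposited transcript rows, and the depth of the libraries is unknown because the files hold no counts. The FPKM of a library summed to between 467493 and 475116. Of the markers of this cell line, VIM was at 1645 FPKM or more and CD44 at 114 FPKM or more in every library, and ESR1 and PGR did not exceed 0.07 FPKM in any library, while ERBB2 lay between 14.3 and 18.1 FPKM. Of the leukocyte markers examined, CD3E was listed at 0 throughout and PTPRC did not exceed 0.04 FPKM, although CD68, which is not restricted to leukocytes, lay between 56.2 and 80.2 FPKM. The summed leukocyte markers were at 56.5 to 78.9 FPKM in Sh-NC and at 65.4 to 81.1 FPKM in Sh-YAP1, those of fibroblasts at 6.61 to 8.78 and 3.79 to 8.99 FPKM, and those of endothelium at 0.77 to 1.76 and 0.78 to 1.55 FPKM. The summed level of each of these marker lists overlapped between the groups.

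In the ligands, IL11 stood apart. IL11 (ENSG00000095752, chromosome 19, 55364389 to 55370463, minus strand of GRCh38) was at 25.7, 22.6 and 23.3 FPKM in Sh-NC and at 7.17, 6.97 and 6.45 FPKM in Sh-YAP1. All Sh-YAP1 libraries were far below all Sh-NC libraries, and the spread within a group was small beside this gap. The mean fell from 23.9 ± 1.66 FPKM to 6.86 ± 0.37 FPKM (SD, n = 3 each), so that Sh-YAP1 held 28.8% of the Sh-NC level. On the log2(FPKM + 1) scale, which understates the change of weakly expressed genes, the difference was -1.66 (standard error 0.08), and IL11 ranked 12 from the lowest among 14770 genes tested. In bulk RNA, fewer cells expressing a gene and less of its RNA per cell cannot be told apart.

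LIF, which maintains stem cells in culture and acts through LIFR and gp130, was the most abundant ligand gene in both groups. LIF (ENSG00000128342, chromosome 22, 30240447 to 30246851) was at 30.2, 31.3 and 27.9 FPKM in Sh-NC and at 27.2, 26.7 and 26.5 FPKM in Sh-YAP1. The groups did not overlap, but the nearest libraries lay within 1 FPKM of each other, and the log2 difference was -0.15 (standard error 0.07). IL6 (ENSG00000136244, chromosome 7, 22725884 to 22732002), the founding cytokine of the family and a driver of inflammation, was expressed at a far lower level. It was at 3.06, 3.88 and 3.20 FPKM in Sh-NC and at 2.62, 2.25 and 2.69 FPKM in Sh-YAP1. Again every Sh-YAP1 library was below every Sh-NC library, by a small margin, with a log2 difference of -0.31 (standard error 0.11), which was -0.20 when only transcript rows with a mean of at least 0.1 FPKM were summed. IL11, LIF and IL6 were thus each lower in every Sh-YAP1 library than in any Sh-NC library, but in LIF and IL6 the difference did not pass an adjusted p of 0.05 in the fit over all genes.

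**Figure D1:**
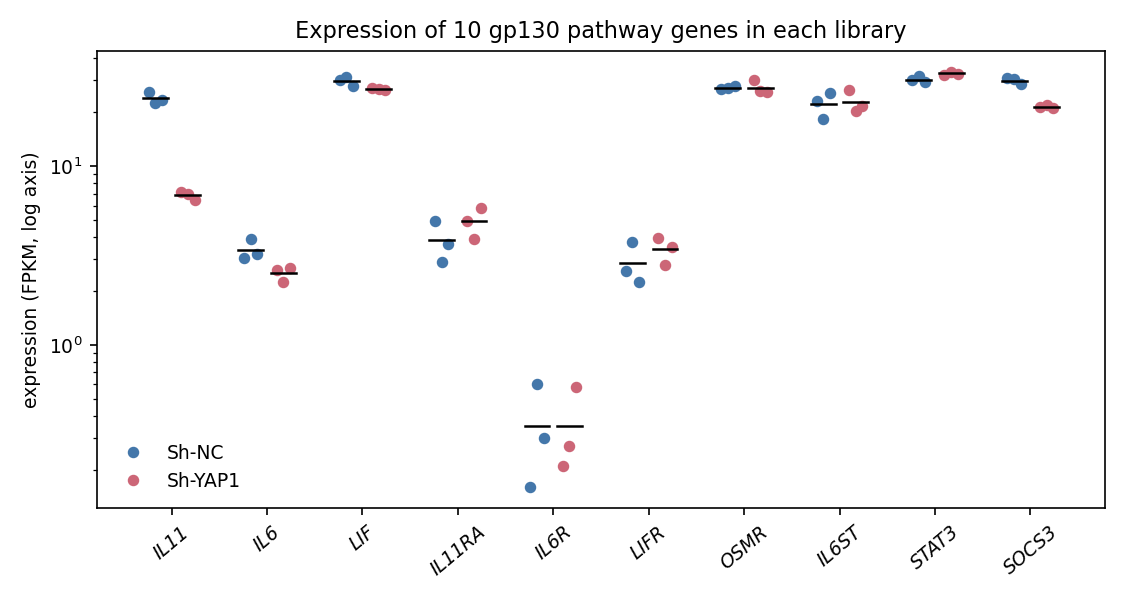
Expression in FPKM (log axis) of the 10 genes in each of the 3 Sh-NC and 3 Sh-YAP1 libraries, with points for libraries and horizontal lines for group means. IL11 in Sh-YAP1 lies at 6.45 to 7.17 FPKM, against 22.6 to 25.7 FPKM in Sh-NC, whereas the receptor genes overlap between the groups.

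The private receptor chains were expressed at a low level and overlapped between the groups. IL11RA (ENSG00000137070, chromosome 9, 34650702 to 34661892), which binds IL11, was at 4.91, 2.89 and 3.68 FPKM in Sh-NC and at 4.93, 3.92 and 5.85 FPKM in Sh-YAP1. Its log2 difference was 0.30 (standard error 0.19), and the Sh-NC libraries alone varied by 26.6% of their mean (coefficient of variation). The IL11RA difference was 0.15 without Sh-NC replicate 2, 0.18 without Sh-YAP1 replicate 3 and 0.45 without Sh-NC replicate 1. LIFR (ENSG00000113594, chromosome 5, 38474963 to 38608354), the second chain of the LIF receptor, was at 2.57, 3.74 and 2.23 FPKM in Sh-NC and at 3.93, 2.80 and 3.50 FPKM in Sh-YAP1, a log2 difference of 0.21 (standard error 0.17). The LIFR difference was 0.09 without Sh-NC replicate 3, 0.12 without Sh-YAP1 replicate 1 and 0.37 without Sh-NC replicate 2. Neither IL11RA nor LIFR passed the threshold. IL6R (ENSG00000160712, chromosome 1, 154405193 to 154469450), the private chain for IL6, was close to absent, between 0.16 and 0.60 FPKM in Sh-NC and between 0.21 and 0.58 FPKM in Sh-YAP1. With a mean of 0.353 FPKM it fell under the minimum of 0.5 FPKM and was the single gene of the list that was not tested.

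OSMR and IL6ST were the abundant receptor genes. OSMR (ENSG00000145623, chromosome 5, 38845858 to 38945596), the chain that pairs with gp130 for oncostatin M, was at 26.8, 27.2 and 28.0 FPKM in Sh-NC and at 30.3, 26.1 and 25.9 FPKM in Sh-YAP1. The means were the same to 3 digits, 27.4 FPKM, and the log2 difference was -0.0011 (standard error 0.08), with a range of -0.07 to 0.04 over the 15 alternative settings. IL6ST (ENSG00000134352, chromosome 5, 55935095 to 55994993) was at 23.0, 18.3 and 25.4 FPKM in Sh-NC and at 26.4, 20.4 and 21.7 FPKM in Sh-YAP1. The groups overlapped widely, with a log2 difference of 0.04 (standard error 0.15) and a range of -0.09 to 0.14 over the same settings. The standard error leaves room for changes of IL6ST that these libraries could not resolve.

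Downstream of the receptors, SOCS3 was lower in Sh-YAP1, and STAT3 was slightly higher without passing the threshold. STAT3 (ENSG00000168610, chromosome 17, 42313324 to 42388568), the transcription factor of the pathway, was at 30.1, 31.6 and 29.3 FPKM in Sh-NC and at 32.3, 33.7 and 32.7 FPKM in Sh-YAP1. Each Sh-YAP1 library was above each Sh-NC library by little, and the log2 difference was 0.11 (standard error 0.07). SOCS3 (ENSG00000184557, chromosome 17, 78356778 to 78360077) was at 31.0, 30.5 and 28.5 FPKM in Sh-NC and at 21.3, 22.0 and 21.1 FPKM in Sh-YAP1. The Sh-YAP1 libraries were tightly grouped and all below the Sh-NC libraries, with 71.5% of the Sh-NC mean and a log2 difference of -0.47 (standard error 0.07). Over the 15 alternative settings its log2 difference lay between -0.50 and -0.44. SOCS3 was among the genes that passed an adjusted p of 0.05 in the fit over all genes. It was no longer among them when Sh-NC replicate 1 or 2 or any 1 of the 3 Sh-YAP1 libraries was left out. The same held when no filter on low values was used, and with the replicate number added to the fit as a block (adjusted p = 0.131, limma).

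Of the 9 genes in the fit, IL11 and SOCS3 were among those past an adjusted p of 0.05 (limma, 14770 genes), both lower in Sh-YAP1. Of all genes, 3.38% passed, 1.75% higher and 1.62% lower in Sh-YAP1. With the replicate number added to the fit as a block, neither IL11 nor SOCS3 passed (adjusted p = 0.0679 and 0.131, limma), and 1 of all genes did. Groups did not overlap for 5 of the 10 genes (IL11, SOCS3, LIF and IL6 lower, STAT3 higher), against 29.4% of all genes tested (14.6% higher and 14.7% lower). Since the same contrast was used to draw up the list, nothing is read from these counts. The median log2 difference over the 9 genes was -0.0011, and that over all genes tested was -0.0014.

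**Figure D2:**
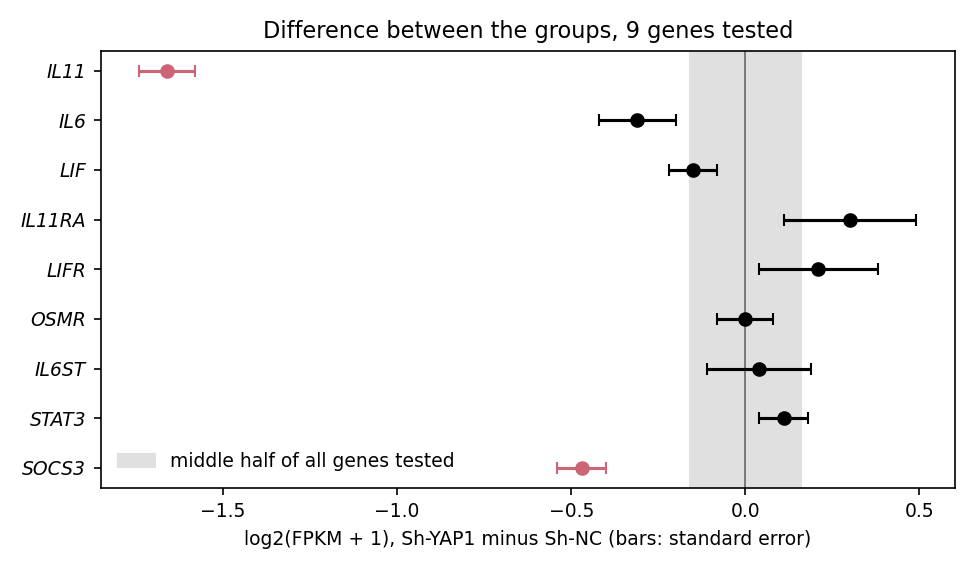
Difference of mean log2(FPKM + 1) between Sh-YAP1 and Sh-NC for the 9 genes tested, with standard errors as bars. Coloured points mark the genes with an adjusted p under 0.05, IL11 (-1.66) and SOCS3 (-0.47), and the grey band, from -0.16 to 0.16, runs from the lower to the upper quartile of all genes tested.

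FPKM is scaled to transcript length, which allows levels to be set side by side between genes. In Sh-NC the order from the highest mean was STAT3, SOCS3, LIF, OSMR, IL11, IL6ST, IL11RA, IL6, LIFR and IL6R. The libraries of STAT3 and SOCS3, of SOCS3 and LIF, and of LIF and OSMR overlapped in range, as did those of IL11 and IL6ST, of IL11RA and IL6, and of IL6 and LIFR, so that these neighbours were not separated. Separate ranges were found between OSMR and IL11, between IL6ST and IL11RA, and between LIFR and IL6R. In Sh-YAP1 the order was STAT3, OSMR, LIF, IL6ST, SOCS3, IL11, IL11RA, LIFR, IL6 and IL6R, and IL11 stood alone between SOCS3 (21.4 FPKM) and IL11RA (4.90 FPKM), with no overlap with either. OSMR and LIF, IL6ST and SOCS3, and IL11RA and LIFR were the neighbours whose ranges overlapped in Sh-YAP1. In both groups LIF was thus measured at about the level of OSMR, while LIFR, the chain LIF itself binds, was at 2.85 ± 0.79 FPKM in Sh-NC and at 3.41 ± 0.57 FPKM in Sh-YAP1 (SD, n = 3 each).

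Among the ligand genes of the gp130 cytokine family (IL11, IL6, LIF, OSM, CLCF1, CTF1, CNTF, IL27 and IL31), 6 of 9 had a value above 0 in some library. OSM, IL27 and IL31 were listed at 0 in all libraries, and IL31 is a relative that signals through IL31RA and OSMR without gp130. The summed expression of the 9 genes was 76.8, 76.1 and 71.8 FPKM in Sh-NC and 54.7, 51.3 and 53.6 FPKM in Sh-YAP1. IL11 made up 33.5%, 29.6% and 32.4% of this sum in Sh-NC and 13.1%, 13.6% and 12.0% in Sh-YAP1. Without IL11, the sum was 51.1, 53.6 and 48.5 FPKM in Sh-NC and 47.6, 44.3 and 47.1 FPKM in Sh-YAP1, so that most of the gap between the groups lay in IL11. The share of LIF went from 39.8% to 50.4% (39.3%, 41.1% and 38.9% against 49.6%, 52.1% and 49.4%) as the total shrank, although LIF itself was not higher.

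**Figure D3:**
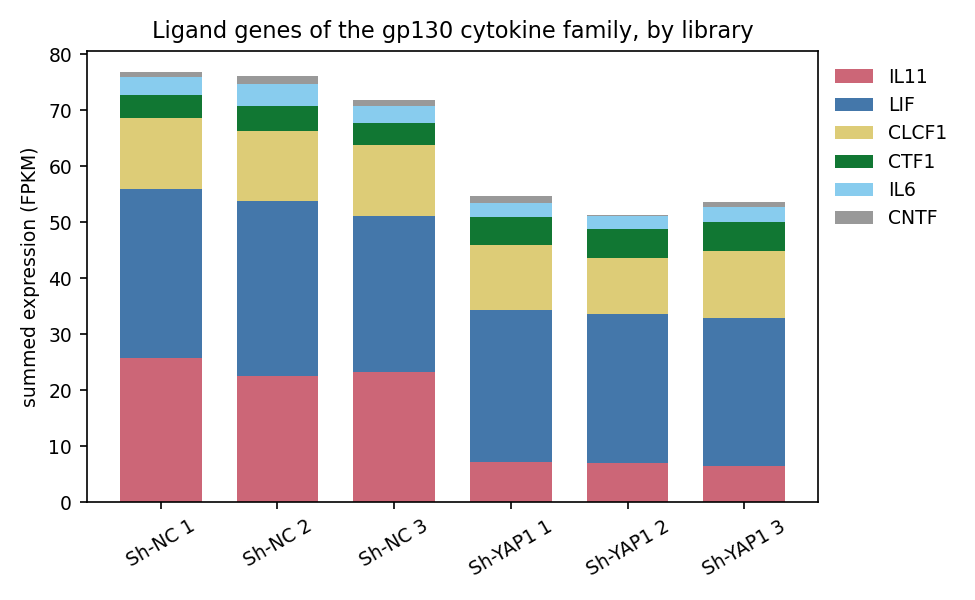
Stacked FPKM of the 6 ligand genes with any expression, for each library. The IL11 segment shrinks from 22.6 to 25.7 FPKM in Sh-NC to 6.45 to 7.17 FPKM in Sh-YAP1, and the remaining segments sum to 44.3 to 53.6 FPKM in all libraries.

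The deposited values carry 1 row per transcript without a transcript name, and the rows of a gene are numbered here by their mean level. IL11 had 4 rows, of which the first held 93.1% of the FPKM of the gene. This row was at 24.4, 21.0 and 21.5 FPKM in Sh-NC and at 6.69, 6.61 and 5.67 FPKM in Sh-YAP1. The second row went from 0.943 ± 0.18 to 0.41 ± 0.19 FPKM (SD, n = 3 each), and the third was at 0.53, 0.36 and 0.73 FPKM in Sh-NC and was listed at 0 in Sh-YAP1. The fourth row did not exceed 0.15 FPKM. Thus 3 of the 4 IL11 rows lay lower without overlap. Over all genes of the list, 12 of 50 rows with a mean of at least 0.1 FPKM had no overlap between the groups, against 13.1% of all such rows. The 3 rows of IL11 are among the 12. Because the same contrast was used to draw up the list, nothing is read from this count either.

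The rows of STAT3 were not alike. The first row, the most abundant, was at 19.4, 19.5 and 18.3 FPKM in Sh-NC and at 23.1, 25.2 and 24.9 FPKM in Sh-YAP1, whereas the second was at 3.34, 3.10 and 4.70 FPKM in Sh-NC and at 1.76, 1.74 and 1.87 FPKM in Sh-YAP1. Neither row overlapped between the groups, and the first row made up 62.9% of the STAT3 total in Sh-NC and 74.2% in Sh-YAP1. For IL6, the first row was lower in Sh-YAP1 without overlap, at 0.83 ± 0.55 against 1.62 ± 0.18 FPKM in Sh-NC, while the second row overlapped, at 1.26 ± 0.38 against 0.817 ± 0.54 FPKM (SD, n = 3 each). SOCS3 had a single row with any value, and LIF had 97.3% of its FPKM in 1 row. The rows of STAT3 and IL6 cannot be assigned to a named isoform here.

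IL6ST showed a different behaviour. In each library a single row held most of the IL6ST total, but it was not the same row in each library. Row 1 was at 15.1 FPKM in Sh-NC replicate 2 and at 15.8 FPKM in Sh-YAP1 replicate 3, and did not exceed 0.91 FPKM in the other libraries. Row 2 was at 14.6 FPKM in Sh-NC replicate 1 and at 14.0 FPKM in Sh-YAP1 replicate 2, row 4 was at 15.4 FPKM in Sh-YAP1 replicate 1, and row 5 was at 12.9 FPKM in Sh-NC replicate 3. The switch therefore ran between replicates and not between the groups, and none of the 13 IL6ST rows with a mean of at least 0.1 FPKM separated them. The gene total was far steadier than its rows, with a coefficient of variation of 16.3% in Sh-NC and 13.9% in Sh-YAP1. The reason for the switch was not tested.

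**Figure D4:**
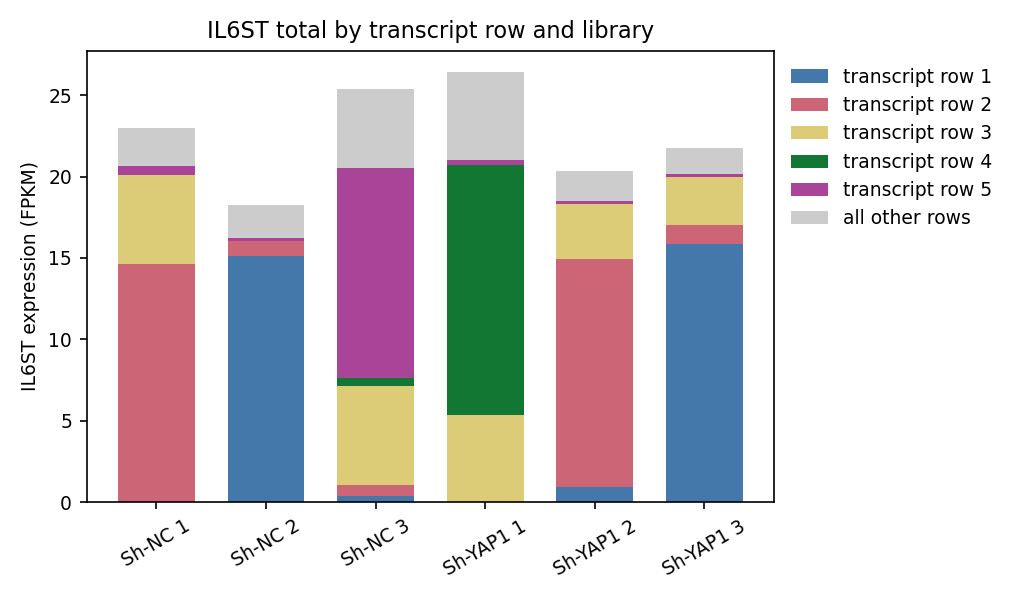
FPKM of IL6ST in each library, divided into the 5 most abundant transcript rows and all other rows. The largest segment, 12.9 to 15.8 FPKM, belongs to a different row in replicates of the same group, while the total stays between 18.3 and 26.4 FPKM.

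Annotated genes overlap some of the loci, and whether the counting used strand is not given in the sources used here, so that reads of overlapping genes may not be separable. GENCODE 29 lists no gene overlapping IL11, STAT3 or SOCS3. IL11RA overlaps the 3′ end of GALT on the same strand, and GALT was at 9.96 to 15.1 FPKM, above IL11RA in every library. IL6 is overlapped on the opposite strand by STEAP1B and AC073072.1, with means of 0.455 and 0.352 FPKM. LIF is overlapped by LIF-AS1 and AC004264.1, with means of 0.375 and 0.557 FPKM. OSMR is overlapped at its 3′ end by RICTOR on the opposite strand, with a mean of 7.12 FPKM. The short pseudogene AC016596.1 lies inside IL6ST on the opposite strand and was at 128 to 201 FPKM. IL6STP1, the pseudogene copy of IL6ST, did not exceed 0.18 FPKM, and IL6RP1, that of IL6R, was listed at 0 in all libraries.

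The genes around IL11 differed less between the groups than IL11. Since IL11 was selected on its fall in this same contrast, nothing is read from that order. Within 100 kb of IL11, 7 genes had a mean of at least 0.5 FPKM, and their log2 differences ran from -0.47 to 0.56. The groups did not overlap for 5 of the 7 (4 lower and 1 higher in Sh-YAP1), against 29.4% of all genes tested. Of the 7 genes, 1 passed the threshold, against 3.38% of all genes. It was UBE2S, which encodes a ubiquitin-conjugating enzyme of the anaphase-promoting complex and lies 29.3 kb from IL11. UBE2S was at 106.4, 104 and 97.7 FPKM in Sh-NC and at 75.4, 71.8 and 73.6 FPKM in Sh-YAP1, a log2 difference of -0.47 (standard error 0.06, limma adjusted p = 0.0211). The call of UBE2S was lost without Sh-NC replicate 1 or 2 or any 1 of the 3 Sh-YAP1 libraries, and without a filter on low values. It was also lost with the replicate number as a block (adjusted p = 0.13, limma). TMEM238, the nearest of the 7 at 8.78 kb, had a log2 difference of -0.28 (standard error 0.13), and ISOC2, at 82.5 kb, had 0.56 (standard error 0.15), neither past the threshold. RICTOR, which overlaps OSMR and is the single such gene at that locus, had a log2 difference of 0.23 (limma adjusted p = 0.211). AC010457.1, the single one near LIFR, had 0.11 (limma adjusted p = 0.672). The 5 genes near LIF ranged from -1.05 to 0.52 with limma adjusted p from 0.183 to 0.822. The lowest was AC004997.1, at 1.34, 2.48 and 0.12 FPKM in Sh-NC and at 0.00, 0.00 and 0.03 FPKM in Sh-YAP1, values near 0. The groups did not overlap for 3 of the 5 genes near LIF (1 lower and 2 higher in Sh-YAP1) or for RICTOR, and overlapped for AC010457.1.

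The 5 genes whose profile over the 6 libraries was closest to that of IL11 were AIDA, CNIH1, TRNP1, MIS18A and ALPP. Closeness was measured as the root mean square distance between profiles of log2(FPKM + 1), each centred on its own mean, and ran from 0.126 for AIDA to 0.301 for ALPP, against a median of 0.85 over 14769 genes. AIDA was at 12.82, 13.04 and 11.49 FPKM in Sh-NC and at 3.90, 4.25 and 3.39 FPKM in Sh-YAP1. CNIH1, which encodes a cargo receptor for export from the endoplasmic reticulum, was at 30.7, 38.0 and 34.2 FPKM in Sh-NC and at 11.44, 11 and 10.31 FPKM in Sh-YAP1. MIS18A, needed to load the centromeric histone CENP-A, went from 8.99 to 3.61 FPKM in the mean, and ALPP, the placental alkaline phosphatase, from 6.64 to 2.62 FPKM. ALPP has close paralogs with which reads may be shared. With 2 groups of 3 libraries, a profile of this kind is mostly the difference between the groups.

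The other genes of the pathway were taken as 6 lists of 58 genes in all, of which 49 were tested and 1, CCND1, passed an adjusted p of 0.05, which is 2.04% against 3.38% of all genes (limma, Benjamini-Hochberg). At an unadjusted p under 0.05 there were 17 of the 49, against 21.9% of all genes tested. Of the 8 ligand and partner genes beside IL11, IL6 and LIF, 5 were tested and 0 passed, 2 having an unadjusted p under 0.05, with a median log2 difference of -0.25. CLCF1, a ligand of the CNTF receptor, was the most abundant of them at 12.6 ± 0.13 FPKM in Sh-NC against 11.2 ± 1.08 FPKM in Sh-YAP1 (SD, n = 3 each). CTF1 (cardiotrophin), which binds LIFR and gp130, was at 4.18 ± 0.34 and 5.07 ± 0.13 FPKM. Neither the CLCF1 difference of -0.16 (standard error 0.09) nor that of CTF1 of 0.23 (standard error 0.09) passed, and that of CLCF1 was -0.08 without Sh-YAP1 replicate 2. CNTFR, the private chain for CNTF and CLCF1, was listed at 0 in all libraries. The other receptor genes, IL27RA and IL31RA, had log2 differences of -0.29 (standard error 0.10) and 0.21 (standard error 0.08), which did not overlap between the groups and did not pass either (limma adjusted p = 0.167 and 0.198).

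Kinases, adaptors and STAT factors gave 0 of 10 genes past the threshold, against 3.38% of all genes tested. An unadjusted p under 0.05 (limma) was found for 2 of the 10, against 21.9% of all genes tested. The median log2 difference of the list was 0.02. PTPN11, which encodes the phosphatase SHP2 that links gp130 to the RAS pathway, was at 50.1 ± 1.15 FPKM in Sh-NC against 55.2 ± 0.59 FPKM in Sh-YAP1 (SD, n = 3 each), a log2 difference of 0.14 (standard error 0.06). GRB2, the adaptor that SHP2 recruits, was at 50.1, 53.5 and 49.1 FPKM in Sh-NC and at 28.0, 42.6 and 29.9 FPKM in Sh-YAP1. Sh-YAP1 replicate 2 lay between the other Sh-YAP1 libraries and the Sh-NC libraries. The log2 difference of GRB2 was -0.61 (standard error 0.16, limma adjusted p = 0.0899), and it passed only without Sh-YAP1 replicate 2 among the 15 alternatives (-0.79, adjusted p = 0.0404, limma).

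Among 13 negative regulators other than SOCS3, 11 were tested and 0 passed, against 3.38% of all genes tested. An unadjusted p under 0.05 (limma) was found for 3 of the 11, against 21.9% of all genes tested. The median log2 difference of the list was 0.07. PTPN1, a phosphatase that acts on Janus kinases, was at 64.2 ± 1.10 FPKM in Sh-NC against 55.7 ± 0.74 FPKM in Sh-YAP1 (SD, n = 3 each), with a log2 difference of -0.20 (standard error 0.06, limma adjusted p = 0.115). PIAS3, an inhibitor of STAT3 binding to DNA, was at 35.6 ± 3.92 and 33 ± 3.84 FPKM. The sheddases ADAM10 and ADAM17, which release receptor chains from the cell surface, were at 14.6 and 9.77 FPKM in Sh-NC and at 14.6 and 12.2 FPKM in Sh-YAP1, and 0 of the 2 passed, ADAM17 having an unadjusted p of 0.0449 (limma).

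Of 22 genes known to respond to STAT3, 19 were tested and 1 passed, lower in Sh-YAP1, which is 5.26% against 3.38% of all genes. An unadjusted p under 0.05 was found for 7 (limma, 5 lower and 2 higher), against 21.9% of all genes tested. The median log2 difference of the list was -0.06. The gene that passed was CCND1, which encodes cyclin D1 and answers to many pathways besides STAT3. It was at 279, 276 and 272 FPKM in Sh-NC and at 205, 209 and 213 FPKM in Sh-YAP1. The groups were well apart, with a log2 difference of -0.40 (standard error 0.06, limma adjusted p = 0.023). The call was lost when any 1 of the 6 libraries was left out (adjusted p of 0.0525 to 0.0917, limma). It was also lost with the replicate number as a block (adjusted p = 0.138, limma). BCL2L1, which encodes the survival factor BCL-XL, was at 209 ± 50.1 and 242 ± 14.5 FPKM, and TIMP1, a metalloproteinase inhibitor, at 165 ± 7.69 and 159 ± 4.90 FPKM (SD, n = 3 each), with overlap in both. The log2 differences of the list ran from -1.01 (SAA1, an acute phase gene) to 0.33 (BCL6, a transcriptional repressor). The groups did not overlap for 7 of the 19 genes, against 29.4% of all genes tested, with SAA1, IRF1, CCND1, MCL1 and CEBPB lower and FOS and VEGFA higher in Sh-YAP1. Apart from CCND1, these genes and BCL6 were named after their values were seen, and none of them passed the threshold. SAA1 was at 2.44, 5.66 and 4.49 FPKM in Sh-NC and at 1.88, 0.82 and 1.92 FPKM in Sh-YAP1 (log2 difference -1.01, standard error 0.29, limma adjusted p = 0.115). VEGFA, which encodes an angiogenic growth factor, was at 28.4, 25.1 and 22.4 FPKM in Sh-NC and at 30.27, 33.04 and 32.05 FPKM in Sh-YAP1 (log2 difference 0.32, standard error 0.10, limma adjusted p = 0.13).

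**Figure D5:**
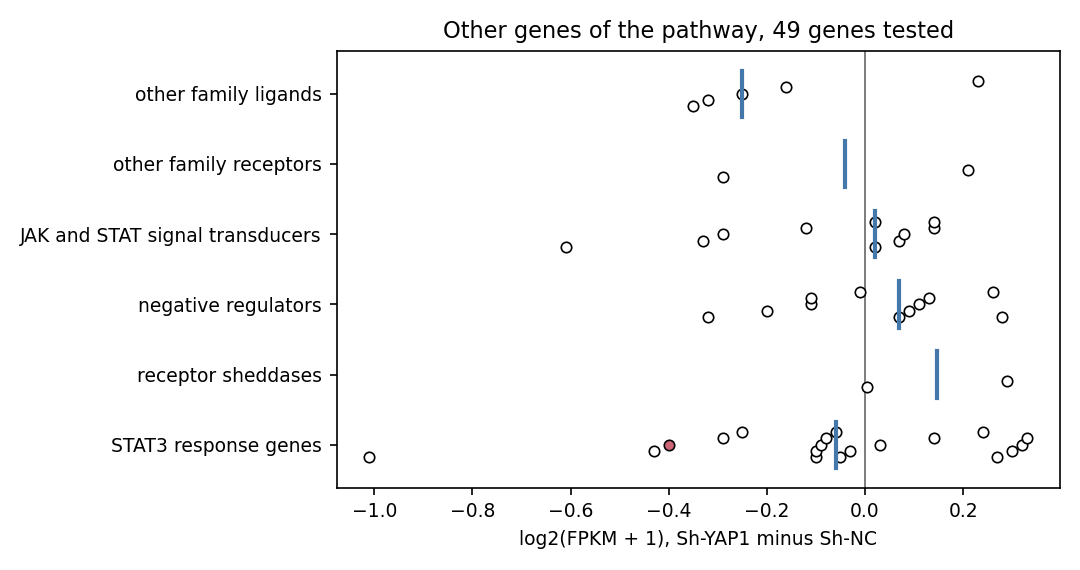
Difference of mean log2(FPKM + 1) between Sh-YAP1 and Sh-NC for the 49 other pathway genes tested, 1 point per gene, with a vertical line at the median of each list. The filled point is CCND1 (-0.40), the single gene past the adjusted threshold, and the list medians lie between -0.25 and 0.15.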

How the data were processed

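RNA from 3 Sh-NC and 3 Sh-YAP1 libraries of MDA-MB-231 cells was sequenced. The authors deposited FPKM values, 1 per transcript row and library, with a gene identifier and 2 decimals. The submitters' processing notes name HISAT2 2.0, Bowtie 0.12.2 and hg19. The quantification tool, annotation and strand setting are not given in the sources used here. Positions are from GENCODE 29 (GRCh38), so they may differ from the build behind the values. Of 60612 gene identifiers, 60401 had a symbol. Rows of a gene were summed. Genes averaging 0.5 FPKM or more were compared as log2(FPKM + 1) with limma 3.58.1 (R 4.3.3, mean-variance trend, Benjamini-Hochberg over 14770 genes, two-sided). No count model was fitted to FPKM. The code was tested on simulated data. Python 3.11.15 was used for the rest. Depth is unknown, so errors start from the spread between libraries. For standard errors and p-values, limma draws that spread towards a trend over all genes, so they are not the spread of 1 gene alone.

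The 10 genes and the pathway lists were chosen with earlier results of these data known. The named genes are the 10, YAP1, listed pathway genes past the threshold and, besides these, the 2 most abundant of each list, genes overlapping or near the loci, and the 5 nearest to IL11. CNTFR, CNTF, OSM, IL27, IL31, SAA1, IRF1, MCL1, CEBPB, FOS, VEGFA and BCL6 fall outside this rule and were named after their values were seen. Alternatives covered pseudocount, scaling, trend, filter, row filter, replicate block and each library left out.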

Additional observations from a re-analysis of the deposited data

How the results depend on the processing

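Of 14770 genes, 499 passed an adjusted p of 0.05 in limma, 2 of the 10 listed genes and 1 of the other pathway genes among them. Without a filter these numbers were 103 and 1 for all genes and the listed genes. With the replicate number as a block they were 1, 0 and 0, while 2779, 2 and 9 had an unadjusted p under 0.05. The calls of IL11, SOCS3, CCND1 and UBE2S were lost with the block (adjusted p = 0.0679, 0.131, 0.138 and 0.13, limma), and those of SOCS3 and UBE2S without a filter (adjusted p = 0.0605 and 0.0614, limma). Over all genes tested, same-numbered libraries shared little variation, their deviations from the group means correlating at -0.028, 0.062 and 0.004. The numbers were therefore not treated as pairs. Such a correlation over all genes cannot settle this for a single gene. With the block the standard error fell for some genes (IL11RA, 0.19 to 0.14) and rose for others (IL6, 0.11 to 0.13). With each library left out in turn the numbers ran from 78 to 171, from 1 to 2 and from 0 to 1. The log2 difference of IL11 lay between -1.80 and -1.61 in all 15 alternatives. This difference chose the genes and is no test. ADAM10, at 0.0042, changed sign with median centring (-0.01) and with the row filter (-0.01), and ran from -0.07 to 0.08 with a library left out. TIMP1 turned to 0.03 with quantile normalization. The cause of these changes was not tested. Depth is unknown, which limits what can be said of IL6R and the other genes near 0.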
